A study of Mus musculus with 8 samples.

Results

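The genes studied here carry glucose into the cell, break it down to pyruvate and lactate, and govern the oxidation of pyruvate. They were compared between 2 fetal mouse vessels, the ductus arteriosus and the aorta. The group was set by name, as 33 glucose transporters, glycolytic enzymes, lactate enzymes and carriers, and regulators of pyruvate dehydrogenase. Of these 33 genes, 29 had a probe set that the platform annotation gives to that gene alone, among 18193 genes in all. Gpi1, Pfkfb1 and Eno1 were not listed in the annotation used here, and Gapdh was represented by 3 array control probe sets, described apart. Where a gene had several probe sets, the one with the highest mean over the 8 arrays was used.

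Before birth the ductus arteriosus leads blood from the pulmonary artery past the lungs into the descending aorta, and after birth, when oxygen rises, it constricts. The ductus samples, 4 arrays, and the aorta samples, 4 arrays, came from untreated wild type mice whose strain label reads CD88, taken on day 19 of gestation. Each array held total RNA from vessel segments of up to 10 pups of a single dam, so a replicate is a litter pool and both sexes can be mixed in it. Values are log2 expression after RMA, and array medians lay between 4.36 and 4.42.

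Glycolysis turns glucose into pyruvate in the cytosol. Glucose enters through facilitative transporters of the Slc2a family, is trapped by hexokinase, and is committed to breakdown by phosphofructokinase, the main control step, whose activity is raised by a sugar bisphosphate that the Pfkfb enzymes make and remove. Pyruvate is then either reduced to lactate, which leaves through monocarboxylate carriers, or oxidised by the pyruvate dehydrogenase complex, which the Pdk kinases switch off. Arterial smooth muscle is known for making lactate even when oxygen is present.

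Of the glycolysis genes, 2 passed the threshold for a difference between the vessels, both in early steps. The call of Pfkp was kept in all 8 fits that left out 1 array, and that of Slc2a4 in 2 of 8. Slc2a4, the insulin-responsive glucose transporter of muscle and fat, was 2.33-fold higher in the ductus, and Pfkp, the platelet-type phosphofructokinase, 1.75-fold higher. By limma with Benjamini-Hochberg adjustment over all genes, 2 of 29 members passed an adjusted p of 0.05 with higher levels in the ductus, beside 1.80% of all genes, and 0 of 29 passed with lower levels, beside 2.06% of all genes. In either direction, 3.86% of all genes passed. Without adjustment, 7 of the 29 (24.1%) had a p under 0.05, beside 16.1% of all genes. The median log2 difference, ductus minus aorta, was -0.05 over the members and -0.03 over all genes, and the median absolute difference was 0.17 and 0.15. These counts describe the members and were not tested as a list. Their p rests on how far pools of litters vary among themselves.

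**Figure D1:**
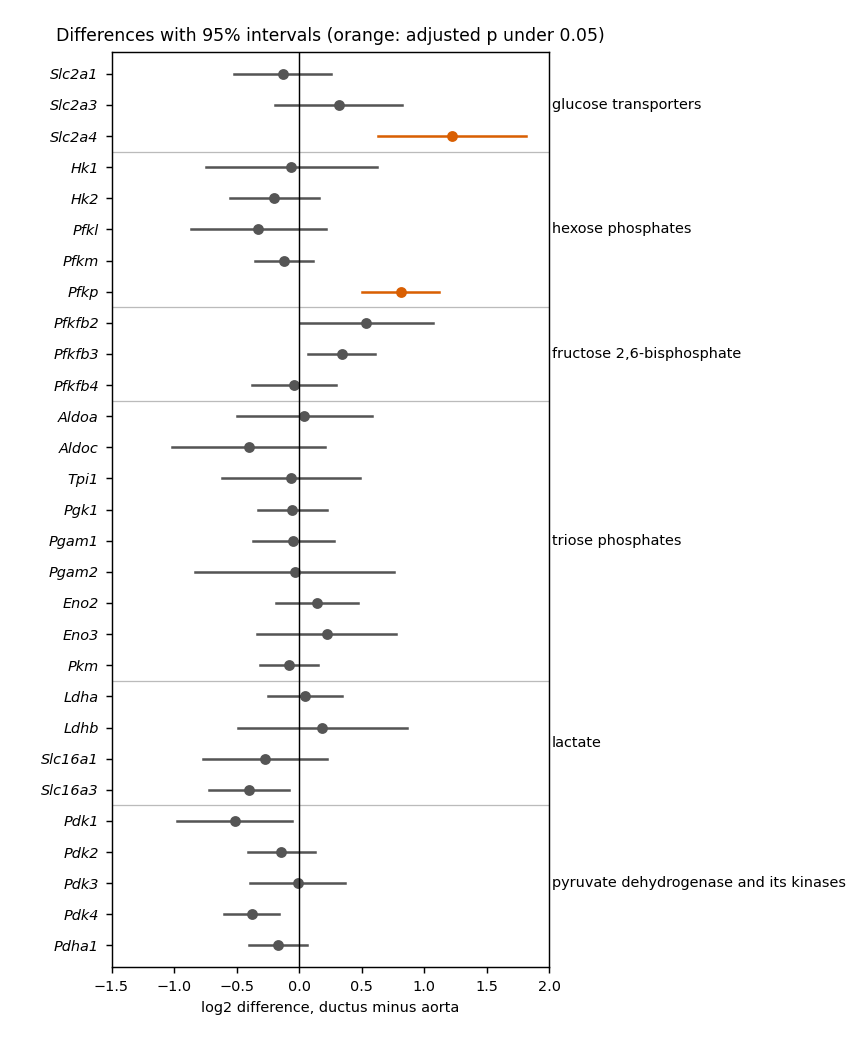
Log2 difference in expression, ductus minus aorta, for the 29 measured genes in order of their step in the pathway. Points are limma estimates from 4 arrays per vessel, bars are 95% intervals without adjustment for the number of genes, and orange marks Slc2a4 and Pfkp, the genes with an adjusted p under 0.05.

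The 27 members that did not pass had log2 differences between -0.52 and 0.54. For 25 of the 29 members the unadjusted 95% interval of the difference lay inside a log2 difference of 1, that is 2-fold, in either direction. The intervals of Slc2a4, Pfkp, Pfkfb2 and Aldoc reached beyond it. Every ductus array lay above every aorta array for 3 members (Slc2a4, Pfkp and Pfkfb3), as for 5.23% of all genes, and below for 1 member, Pdk4, as for 6.06% of all genes.

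Among the glucose transporters, Slc2a4 stood at 8.49, 8.72, 8.91 and 8.18 on the ductus arrays of replicates 1 to 4, against 6.94, 6.89, 8.03 and 7.56 on the aorta arrays. All ductus values were higher than all aorta values, although the lowest ductus array (replicate 4) was close to the highest aorta array (replicate 3). The means were 8.57 ± 0.313 in the ductus and 7.35 ± 0.541 in the aorta (SD, n = 4 each), a log2 difference of 1.22 ± 0.264 (SE; limma, adjusted p = 0.0345). The call was kept in 2 of 8 fits that left out a single array, without aorta replicate 3 (adjusted p = 0.0100) and without ductus replicate 4 (0.0469). It was lost in the other 6, without aorta replicates 1 (0.0836), 2 (0.0933) and 4 (0.0631) and without ductus replicates 1 (0.0794), 2 (0.0881) and 3 (0.0852), while the log2 difference stayed between 1.06 and 1.44. A further probe set of Slc2a4, at a ductus mean of 3.54 and an aorta mean of 3.12, had a difference of 0.42 and did not pass among all single-gene probe sets (adjusted p = 0.269).

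Slc2a4 is known from muscle and fat cells, so markers of these cells were read on the same arrays. Skeletal muscle markers (10 of 10 measured) averaged 3.92 to 6.23 on the ductus arrays and 3.50 to 4.06 on the aorta arrays, with all 10 differences positive, a median log2 difference of 1.05 and 0 called. The differences ran from 0.03 for Ckm, the muscle creatine kinase, to 1.69 for Myh3, the embryonic myosin heavy chain. Tnnt3, a fast-muscle troponin, had the only set of ductus values that all lay above the aorta values (log2 difference 1.48, adjusted p = 0.0522). The highest array in these markers was ductus replicate 3, which also had the highest Slc2a4. Adipocyte markers (4 of 6 measured) averaged 5.79 to 6.997 in the ductus and 4.87 to 8.58 in the aorta, with 0 called, and aorta replicate 3 was highest in them and had the highest Slc2a4 among the aorta arrays. Slc2a4 had a log2 difference of 1.11 without ductus replicate 3 (adjusted p = 0.0852, not called) and of 1.44 without aorta replicate 3 (adjusted p = 0.0100). With both left out, a choice made after seeing the data that also takes away the highest aorta value, it was 1.33 (adjusted p = 0.0236). Smooth muscle markers (7 of 7 measured) averaged 9.77 to 10.38 in the ductus and 8.46 to 9.08 in the aorta. Of the 7, 4 were called higher, beside 1.80% of all genes. The part of skeletal muscle, fat and smooth muscle cells in the Slc2a4 difference was not tested. In such bulk tissue, more cells of a type and more RNA per cell cannot be told apart.

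The other transporters did not pass. Slc2a3, the high-affinity neuronal and placental transporter, was at 9.74, 8.96, 9.41 and 9.30 in the ductus and 9.44, 8.57, 8.79 and 9.32 in the aorta, with overlapping groups (log2 difference 0.32 ± 0.226, adjusted p = 0.557). Slc2a1, the basal transporter of most fetal tissues and of red cell precursors, averaged 11.25 ± 0.168 in the ductus and 11.38 ± 0.337 in the aorta (log2 difference -0.13 ± 0.173, adjusted p = 0.788). Slc2a1 was highest on ductus replicate 1 (11.49) and on aorta replicates 4 and 1 (11.77 and 11.55). The mean of the erythroid markers, 4 of 7 measured and 0 called, was highest on the same arrays, at 8.28 on ductus replicate 1 and at 8.14 and 7.96 on aorta replicates 4 and 1. The part of red cells in the Slc2a1 values was not tested.

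Of the enzymes that act on hexose phosphates, 1 of 5 measured passed. Pfkp was at 9.78, 9.58, 10.06 and 9.51 on the ductus arrays, against 8.79, 9.05, 8.90 and 8.94 on the aorta arrays. The groups did not overlap, and the spread was wider among the ductus arrays. The log2 difference was 0.81 ± 0.137 (means 9.73 ± 0.246 and 8.92 ± 0.110, ductus and aorta; limma, adjusted p = 0.0107), and the call was kept in all 8 fits that left out 1 array, with adjusted p between 0.0163 and 0.0376. All 3 probe sets of Pfkp went in this direction: the others had log2 differences of 0.81 (adjusted p over probe sets = 0.00448) and 0.52 (adjusted p = 0.151, at means of 3.78 in the ductus and 3.26 in the aorta).

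Phosphofructokinase is a tetramer of muscle, liver and platelet subunits, and the genes of the other subunits did not pass. Pfkm, the muscle subunit, averaged 7.03 ± 0.099 in the ductus and 7.14 ± 0.113 in the aorta (log2 difference -0.12 ± 0.105, 95% interval -0.35 to 0.11, adjusted p = 0.652). Pfkl, the liver subunit, was at 6.42, 5.74, 6.06 and 6.06 in the ductus and 5.77, 6.50, 6.35 and 6.96 in the aorta (log2 difference -0.33 ± 0.241, adjusted p = 0.577). Their groups overlapped, and whether the differences of these genes themselves differ from that of Pfkp was not tested. The 2 further Pfkl probe sets had log2 differences of -0.10 (limma, adjusted p over probe sets = 0.896) and -0.54 (0.104). At the latter, every ductus value (4.04 to 4.69) lay below every aorta value (4.77 to 5.05), but it did not pass.

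Hexokinases trap glucose inside the cell. Hk2, the regulated isoform of muscle and fat, was at 8.15, 8.42, 8.06 and 8.16 in the ductus and 8.06, 8.63, 8.66 and 8.24 in the aorta (log2 difference -0.20 ± 0.158, adjusted p = 0.611). Hk1, the housekeeping isoform, averaged 6.47 ± 0.453 in the ductus and 6.54 ± 0.571 in aorta arrays (adjusted p = 0.948). Both overlapped between the vessels, and the interval of Hk1, -0.74 to 0.62, was among the wide ones.

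**Figure D2:**
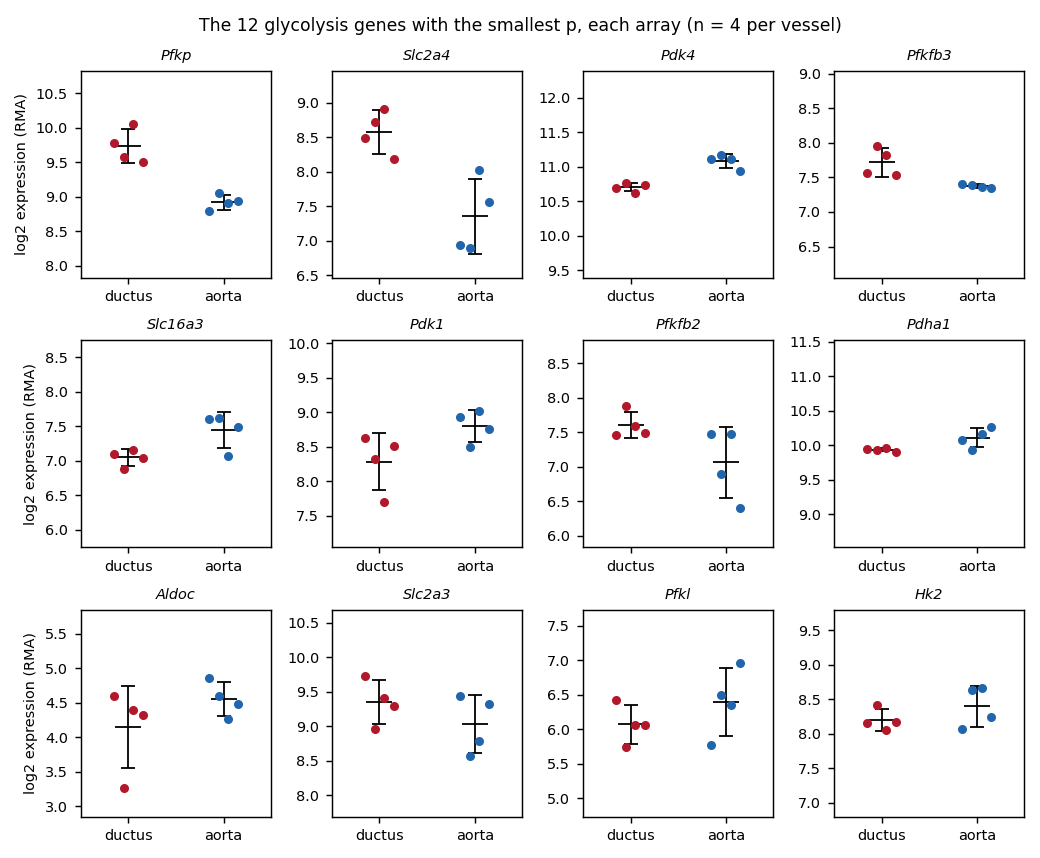
Log2 expression on each array for the 12 members with the smallest unadjusted p, ductus in red left of aorta in blue, with the mean and SD of 4 arrays in black. Each panel spans 3 log2 units around its own mean; the groups are apart in Pfkp, Slc2a4, Pdk4 and Pfkfb3.

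**Figure D3:**
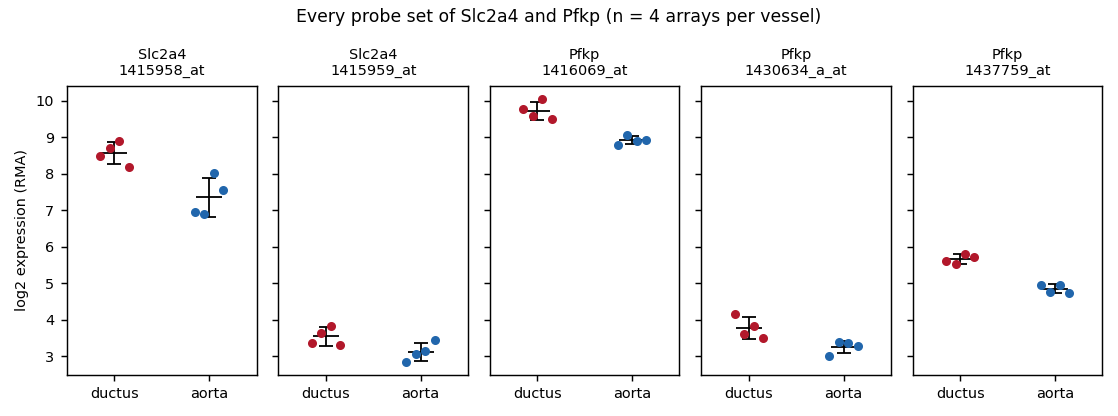
Log2 expression on each array for the 2 probe sets of Slc2a4 and the 3 of Pfkp, ductus left of aorta, with mean and SD of 4 arrays. Every probe set has a higher mean in the ductus, and the less bright Slc2a4 probe set overlaps between the vessels.

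The upstream sequence of Pfkp is shown because Pfkp passed with every array left out in turn. Those of Ldha and Pgk1, textbook targets of the hypoxia-inducible factors that did not pass here, are set beside it. Capitals mark ACGTG and GCGTG, the core letters of the hypoxia response element, on either strand (CACGT and CACGC on the reverse). Each sequence is 300 bases, from 250 before to 50 after the RefSeq gene start (GRCm38.p6), read along the gene: Pfkp at chr13:6648722-6649021 on the minus strand, Ldha at chr7:46845554-46845853 on the plus strand (the first of 2 entries), and Pgk1 at chrX:106186850-106187149 on the plus strand.
Pfkp: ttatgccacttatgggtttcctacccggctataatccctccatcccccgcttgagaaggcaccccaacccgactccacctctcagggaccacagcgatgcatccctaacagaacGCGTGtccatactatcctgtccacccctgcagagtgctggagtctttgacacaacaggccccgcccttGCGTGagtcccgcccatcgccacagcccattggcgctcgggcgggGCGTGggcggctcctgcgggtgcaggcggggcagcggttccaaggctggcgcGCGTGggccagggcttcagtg
Ldha: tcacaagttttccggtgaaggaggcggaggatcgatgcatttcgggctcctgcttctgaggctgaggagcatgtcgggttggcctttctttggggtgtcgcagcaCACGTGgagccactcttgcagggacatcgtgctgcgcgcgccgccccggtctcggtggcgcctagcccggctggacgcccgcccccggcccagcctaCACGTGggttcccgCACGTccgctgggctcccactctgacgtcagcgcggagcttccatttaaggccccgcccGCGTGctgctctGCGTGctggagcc
Pgk1: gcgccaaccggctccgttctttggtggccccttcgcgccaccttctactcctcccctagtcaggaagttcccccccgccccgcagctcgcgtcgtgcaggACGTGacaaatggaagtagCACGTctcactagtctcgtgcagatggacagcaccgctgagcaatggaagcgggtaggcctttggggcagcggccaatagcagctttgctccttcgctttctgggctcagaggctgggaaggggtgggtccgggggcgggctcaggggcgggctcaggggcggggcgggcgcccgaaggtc
Pfkp held 0 ACGTG and 4 GCGTG matches, Ldha 5 and 2, and Pgk1 2 and 0. A CACGTG, the E-box, holds ACGTG on both strands and counts at both positions, as at 2 places in Ldha.

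RefSeq promoter entries existed for 27 of the 29 members, with 41 entries in all. ACGTG was found in at least 1 entry of 16 of the 27 members (59.3%), against 21.8% of all 27025 genes with an entry. GCGTG was found in 18 of 27 (66.7%), against 35.2% of all genes, and CACGTG in 6 of 27 (22.2%), against 8.09%. By single entries, the shares were 48.8% of member promoters and 19.6% of all 32851 promoters for ACGTG. The background holds all genes with an entry, measured here or not. It was not matched to the members for base composition or number of entries. These are letter matches and not shown binding sites.

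The Pfkfb genes make or remove the activator of phosphofructokinase, and 0 of 3 measured passed. Pfkfb3, the isoform with the highest kinase activity, was at 7.56, 7.96, 7.82 and 7.53 in the ductus, against 7.40, 7.40, 7.36 and 7.35 in the aorta. The groups did not overlap, but the log2 difference of 0.34 ± 0.119 did not pass (adjusted p = 0.185). Its other probe set, at means of 2.65 in the ductus and 2.92 in the aorta, had a difference of -0.27. Pfkfb2, the heart isoform, was at 7.46, 7.87, 7.59 and 7.49 in the ductus and 7.48, 6.89, 7.48 and 6.41 in the aorta (log2 difference 0.54 ± 0.235, adjusted p = 0.300). Its groups overlapped, since aorta replicates 1 and 3 lay just above ductus replicate 1. Without aorta replicate 4 the log2 difference was 0.32, and the other 3 probe sets of Pfkfb2 had differences from -0.24 to 0.24. Pfkfb4 was low on all arrays, with means of 3.45 in the ductus and 3.49 in aorta arrays (adjusted p = 0.931).

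From aldolase to pyruvate kinase, 0 of 9 measured genes passed and 0 had an unadjusted p under 0.05. Aldoa, the main aldolase of muscle, averaged 10.38 ± 0.452 in the ductus and 10.34 ± 0.334 in the aorta, a log2 difference of 0.04 ± 0.240 (adjusted p = 0.956). Pgk1, phosphoglycerate kinase, averaged 11.09 ± 0.095 and 11.14 ± 0.200 (ductus and aorta), with an interval of the difference from -0.33 to 0.22. Pkm, pyruvate kinase of most tissues, averaged 8.99 ± 0.057 in the ductus and 9.07 ± 0.138 in the aorta (interval -0.31 to 0.15). Tpi1, triosephosphate isomerase, and Pgam1, the brain-type phosphoglycerate mutase, had log2 differences of -0.06 ± 0.247 and -0.04 ± 0.144.

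Isoforms tied to particular cells did not pass either. Aldoc, the brain aldolase, was at 4.60, 3.27, 4.40 and 4.33 in the ductus and 4.86, 4.60, 4.27 and 4.48 in the aorta, so that the log2 difference of -0.40 ± 0.271 (adjusted p = 0.532) rested largely on ductus replicate 2. Without that array it was -0.11. Eno2, the neuronal enolase, averaged 10.23 ± 0.205 in the ductus and 10.08 ± 0.217 in aorta arrays (adjusted p = 0.708). Among markers of neurons and chromaffin cells (7 of 7 measured, 0 called), whose mean ran from 3.61 to 3.93 in the ductus and from 3.47 to 3.97 in the aorta, the largest differences were 1.47 for Elavl4 (adjusted p = 0.0562) and -0.90 for Stmn2 (adjusted p = 0.0517). The part of neurons in the Eno2 values was not tested. Eno3, the muscle enolase, was at 6.31, 5.48, 6.68 and 5.59 in the ductus and 5.68, 5.79, 5.87 and 5.84 in the aorta. Its highest value lay on ductus replicate 3, the array highest in skeletal muscle markers, and without that array the log2 difference was -0.002 instead of 0.22. The part of skeletal muscle in the Eno3 values was not tested. Pgam2, the muscle mutase, averaged 4.25 ± 0.652 in the ductus and 4.29 ± 0.564 in aorta arrays (adjusted p = 0.975).

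The lactate genes gave 0 of 4 calls. Ldha, the subunit that favours lactate formation, averaged 9.99 ± 0.187 in the ductus and 9.94 ± 0.169 in the aorta (log2 difference 0.05 ± 0.132, interval -0.25 to 0.35, adjusted p = 0.901). Ldhb, the heart subunit, averaged 9.25 ± 0.466 and 9.06 ± 0.556 (ductus and aorta; adjusted p = 0.825), and its other 3 probe sets had small negative differences, from -0.11 to -0.04. Slc16a3, the lactate exporter of glycolytic cells, was at 7.10, 6.89, 7.16 and 7.04 in the ductus and 7.61, 7.62, 7.07 and 7.50 in the aorta. Aorta replicate 3 alone among the aorta arrays fell among the ductus values, and the log2 difference of -0.40 ± 0.142 did not pass (adjusted p = 0.192). Without aorta replicate 3 it passed, at -0.53 (adjusted p = 0.0431). Slc16a1, the widely expressed carrier of lactate, averaged 10.69 ± 0.235 in the ductus and 10.97 ± 0.456 in aorta arrays (adjusted p = 0.621).

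Pyruvate dehydrogenase and its kinases had 5 measured genes, all with a negative difference and 0 of them called. The difference was negative for 19 of the 29 members and for 10192 of all 18193 genes. Pdk4, the pyruvate dehydrogenase kinase that rises in fasting and with fatty acid use, was at 10.69, 10.76, 10.62 and 10.73 in the ductus, against 11.12, 11.17, 11.11 and 10.94 in the aorta. The groups did not overlap, and the spread within each was small. The log2 difference was -0.38 ± 0.097 (means 10.70 ± 0.060 and 11.08 ± 0.099, ductus and aorta), with an adjusted p of 0.0683. This p lay near the threshold: it was 0.0118 with a variance prior that follows the level of expression, 0.0473 without the lowest 40% of genes and 0.278 with arrays centred on their medians.

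Pdk1, the kinase known as a hypoxia-inducible target, was at 8.62, 8.32, 7.70 and 8.51 in the ductus and 8.93, 8.50, 9.02 and 8.76 in the aorta. Its groups overlapped through aorta replicate 2, and the log2 difference of -0.52 ± 0.206 did not pass (adjusted p = 0.249). The other 3 Pdk1 probe sets had log2 differences between -0.17 and -0.07. Pdha1, the X-linked catalytic subunit of the complex, was at 9.95, 9.94, 9.96 and 9.90 in the ductus and 10.07, 9.93, 10.16 and 10.26 in the aorta (log2 difference -0.17 ± 0.102, adjusted p = 0.473). Pdk2 and Pdk3 had log2 differences of -0.14 ± 0.119 and -0.01 ± 0.169.

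Gapdh, glyceraldehyde phosphate dehydrogenase, was read from the 3 control probe sets of the array, added to the fit after the data were seen. The log2 differences were -0.07 ± 0.144 for the probe set at the 3′ end, -0.24 ± 0.125 for the middle and -0.16 ± 0.120 for the 5′ end, with adjusted p of 0.864, 0.390 and 0.587. All 3 ends had overlapping groups, and the 3′ probe set ran from 11.17 to 11.65 in the ductus and from 11.23 to 11.65 in the aorta.

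Within each vessel, some arrays held the lowest or highest value of many members. Ductus replicate 2 was the lowest ductus array for 13 of 29 members (44.8%, against 30.6% of all genes), and ductus replicate 3 was the highest for 13 (44.8%, against 29.2%). Ductus replicate 4 was the highest for 0 members, against 24.3% of all genes. In the aorta, replicate 1 was lowest for 11 members (37.9%, against 30.3%) and replicate 4 highest for 12 (41.4%, against 30.9%). A set of 7 members (Hk1, Pfkl, Pfkm, Aldoa, Tpi1, Eno3 and Ldha) was lowest both on ductus replicate 2 and on aorta replicate 1, which is 24.1% of members and 11.4% of all genes. The 3′ control probe set of Gapdh was also lowest on these arrays (11.17 and 11.23). Over all genes, the deviations of these arrays from their vessel means correlated at 0.188, the highest value for either of them. These counts describe the arrays and were not tested.

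**Figure D4:**
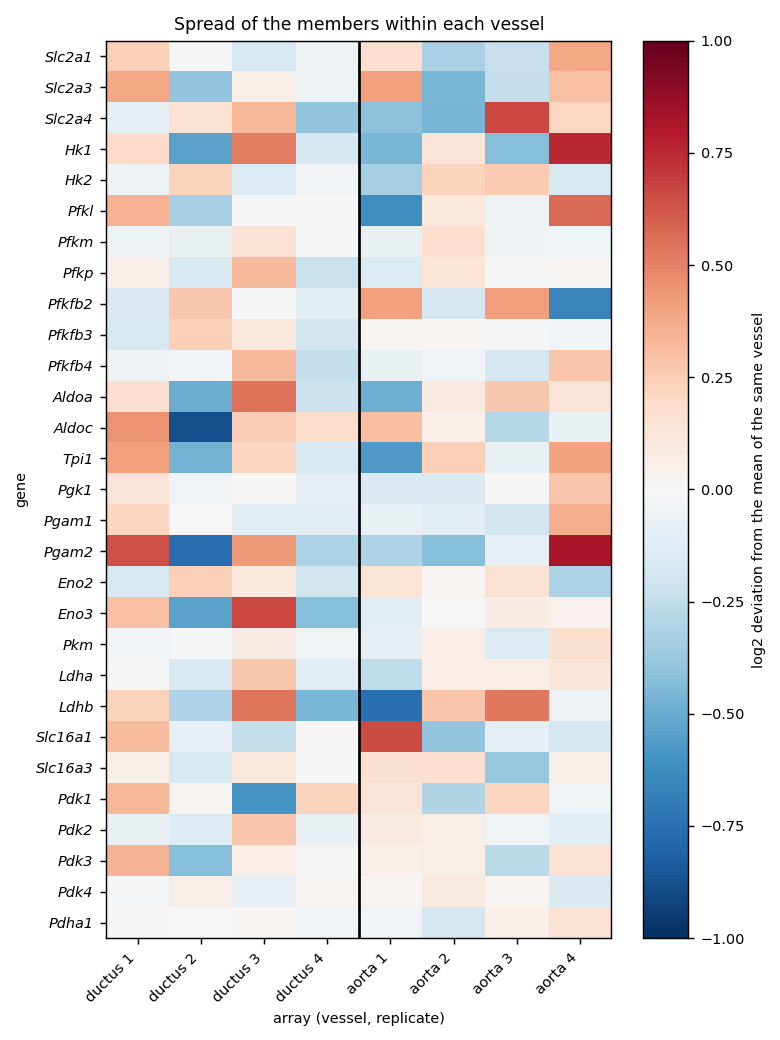
Deviation of each member from the mean of its own vessel, in log2 units, with the ductus arrays left of the aorta arrays. Red is above that mean and blue below, with the 7 members that were lowest both on ductus replicate 2 and on aorta replicate 1, among them Aldoa, Tpi1 and Hk1, blue in both columns.

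The 11 lists of neighbouring pathways held 130 measured genes. By limma, 2 of them were called higher and 4 lower, beside 1.80% and 2.06% of all genes. In 8 of the 11 lists, with 78 measured genes, 0 were called and 9 (11.5%) had an unadjusted p under 0.05. These 8 lists were set apart for having 0 called genes, which by itself lowers that share. They were other transporters and glycolytic isoforms (20 measured), pyruvate entry (8), monocarboxylate carriers (6), gluconeogenesis (6), the pentose phosphate pathway (7), the hexosamine pathway (7), the shuttles of reducing equivalents (10) and the citric acid cycle (14). Their median log2 differences lay between -0.22 and 0.13. The farthest member of each was Galm (-0.52), Pcx (-0.24), Slc16a7 (0.32), Pck2 (-0.43), H6pd (-0.52), Gfpt2 (-0.61), Gpd2 (-0.60, adjusted p = 0.0569) and Dlst (-0.41). All 10 genes of the shuttles had a negative difference, as had 10192 of all 18193 genes.

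Among 16 measured glycogen genes, 0 were called higher and 1 lower, beside 1.80% and 2.06% of all genes. The gene called lower was Phkg1, the muscle catalytic subunit of phosphorylase kinase. It was at 2.94, 3.34, 3.58 and 3.08 in the ductus, against 5.05, 5.22, 5.49 and 4.31 in the aorta. The ductus values lay a little above the first quartile of all values on an array (2.74 to 2.86), and the groups did not overlap (log2 difference -1.78 ± 0.246, adjusted p = 0.00351).

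Regulators of glycolysis had called members in both directions, 2 higher and 2 lower of 21 measured, beside 1.80% and 2.06% of all genes. The catalytic subunits of the AMP-activated kinase, which senses low energy and phosphorylates Pfkfb enzymes, went opposite ways. Prkaa1 was at 7.05, 6.74, 6.94 and 6.92 in the ductus and 6.16, 5.89, 6.17 and 5.86 in the aorta (log2 difference 0.89 ± 0.121, adjusted p = 0.00311). Prkaa2 was at 6.75, 6.85, 6.32 and 6.63 in the ductus and 7.52, 7.68, 7.68 and 7.44 in the aorta (log2 difference -0.94 ± 0.135, adjusted p = 0.00446). Neither overlapped between the vessels.

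The hypoxia regulators went both ways as well. Egln3, a prolyl hydroxylase that marks the hypoxia-inducible factors for breakdown and is itself induced by them, averaged 9.89 ± 0.339 in the ductus, against 7.93 ± 0.027 in the aorta (log2 difference 1.97, 3.91-fold; adjusted p = 0.000171). Hif3a, a factor whose short forms inhibit the others, was at 8.78, 9.20, 9.00 and 8.91 in the ductus and 9.60, 9.70, 9.43 and 9.38 in the aorta (log2 difference -0.56 ± 0.125, adjusted p = 0.0404). Hif1a itself averaged 10.49 ± 0.094 in ductus arrays and 10.18 ± 0.192 in aorta arrays and did not pass (adjusted p = 0.248), although its groups did not overlap. Of 15 measured other hypoxia-induced genes, 0 were called higher and 1 lower, beside 1.80% and 2.06% of all genes. The gene called lower was Ndrg1, a stress-induced gene (log2 difference -0.69 ± 0.128, limma, adjusted p = 0.0167). The median of the list was -0.13.

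Marker lists of the remaining cell types were read on the same arrays. Of all genes, 1.80% were called higher and 2.06% lower. All 7 endothelial differences were negative with 3 called, and their mean ran from 7.33 to 7.52 in the ductus and from 7.88 to 8.38 in the aorta. All 6 mesothelial differences were negative with 5 called, at 6.79 to 7.43 in the ductus and 8.28 to 9.50 in the aorta. Thymocyte markers (5 of 6 measured) averaged 4.02 to 8.09 in the ductus and 3.30 to 7.37 in the aorta, with 0 called. Airway markers had 1 of 5 higher, cardiac muscle 1 of 6 lower, Schwann cell 1 of 3 measured higher, and cartilage 1 of 6 higher and 1 lower, while macrophage (5) and sex-linked genes (4) had 0 called. The part of these cells in the differences of the members was not tested.

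**Figure D5:**
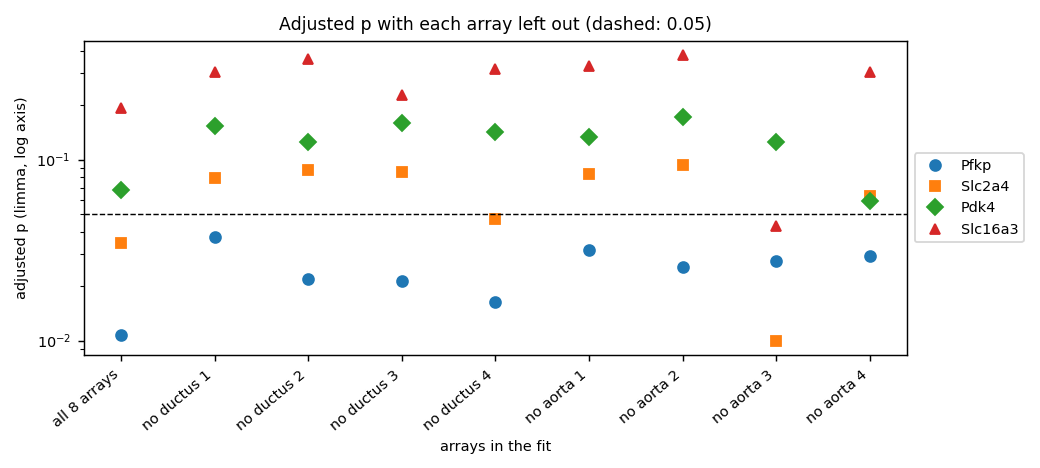
Adjusted p (limma, log axis) of Pfkp, Slc2a4, Pdk4 and Slc16a3 with all 8 arrays and with each array left out. Pfkp stays under the dashed line at 0.05 in every fit, Slc2a4 with all arrays and in 2 of 8 reduced fits, Slc16a3 in 1, and Pdk4 in none of these fits.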

How the data were processed

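Biotin-labelled RNA was hybridised to Affymetrix mouse arrays. The deposited table holds log2 values that the authors made with Partek 6.6 and RMA, per the submitters' processing notes, with order and settings not given in the sources used here. It has no detection calls, so differences at low levels can be compressed, and the number of arrays limits the precision. Of 45101 probe sets, 34945 carried 1 symbol, 932 several and 9160 were unnamed here; 64 were controls. Gene symbols were updated by gene ID (34741 matched), and Ero1l was matched as Ero1a.

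The vessels were compared with limma 3.58.1 in R 4.3.3 (lmFit, eBayes, two-sided, no covariate, no filter), with Benjamini-Hochberg adjustment over 18193 genes and a threshold of 0.05. The code of the fit was run on simulated data in which arrays varied independently, and no result here rests on that run. The replicates are labelled as biological. Arrays of equal replicate number did not deviate together, and the comparison took all arrays as unpaired. Some arrays of other numbers did deviate together, and whether these share a litter is not labelled and was not tested. Members, 11 pathway lists and 14 marker lists were chosen with earlier results of these data known. Values on every array are given for the 12 members with the smallest p, and up to 3 called genes, or the farthest 1, for each pathway list. Per-array values of Eno3 and the values of Hif1a and of skeletal muscle and neuron markers were added after seeing them.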

Additional observations from a re-analysis of the deposited data

Results flagged for a closer look

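In 4 of the 58 sets of 4 arrays examined (29 members in each vessel), a single array stood far from the other 3, past the critical value of Dixon's test at 95% (6.90%; chance gives about 1 in 20). Pkm on ductus replicate 3 was at 9.08, with the other ductus arrays between 8.96 and 8.97. Pdk2 on ductus replicate 3 was at 4.82, with the others between 4.40 and 4.47. Ldha on aorta replicate 1 was at 9.68, with the others between 10.00 and 10.05. Pfkm on aorta replicate 2 was at 7.31, with the others between 7.07 and 7.10. None of these 4 members passed with all arrays, and none passed in a fit that left out 1 array.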

How the results depend on the processing

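Across 20 other settings, 572 differences of members were recomputed, and 525 kept their sign and their side of the threshold. The 33 changes of sign were in 12 members, with an adjusted p of at least 0.760 in the settings that changed the sign. With arrays centred, Pgam2 became 0.0044 and Pdk3 0.0284; with quantile normalization Pdk3 became 0.0015; with the mean over probe sets Ldhb became -0.0105; with array weights Aldoa became -0.0086, Pgam2 0.0214 and Pdk3 0.0071. Without both replicate 3 arrays, a setting added after seeing the data, Aldoa became -0.0492 and Ldha -0.0170. Leaving out 1 array gave ranges of -0.2383 to 0.0003 for Slc2a1, -0.2313 to 0.1913 for Hk1, -0.1497 to 0.0526 for Pfkfb4, -0.1381 to 0.2079 for Aldoa, -0.2541 to 0.0930 for Tpi1, -0.1019 to 0.0402 for Pgk1, -0.1156 to 0.0760 for Pgam1, -0.2509 to 0.2372 for Pgam2, -0.0018 to 0.3991 for Eno3, -0.0386 to 0.1007 for Ldha, -0.0645 to 0.3631 for Ldhb and -0.1248 to 0.1294 for Pdk3. The cause of these changes was not tested.

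With 1 array left out, the members called higher numbered 1 to 2 and those called lower 0 to 1 (Slc16a3 without aorta replicate 3), while all genes called lower numbered 201 to 419 and higher 233 to 289. Called lower numbered 201 without aorta replicate 2, and 239, 230 and 214 without ductus replicates 1, 2 and 4. Pdk4 made 1 member called lower without the lowest 40% of genes, with a mean above log2 6, with the mean over probe sets, with a trended prior, with a trended and robust prior, and at an adjusted p under 0.10, where 665 genes in all were called lower. The same replicate numbers did not deviate together (residual correlations of -0.068, -0.148, -0.191 and -0.227 for numbers 1 to 4), and no array correlated best with its own number. Ductus replicates 1, 2, 3 and 4 correlated best with aorta replicates 4, 1, 2 and 3. These correlations were 0.342, 0.188, 0.295 and 0.28, each the highest for both arrays. Whether these arrays share a litter was not tested, and they were not used as a block. With the number as a replicate block, 0 members were called in either direction, with 208 genes higher and 195 lower in all. In that limma fit Pfkp was at an adjusted p of 0.0589 and Slc2a4 at 0.0532. This block joins arrays that did not deviate together. No label says whether equal numbers mark a shared litter, so whether this was a fit by litter is not known. The number of arrays limits the precision, and the deposited values carry no detection calls.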
